A study of Mus musculus with 12 samples.

Results

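This account concerns 40 genes of the cell cycle and of mitosis, out of 23420 genes counted in mouse liver. They were read by symbol in the first column of 2 count tables of 6 libraries each, and 40 of the 40 were found in both. The list names genes by known function, and it was drawn up with earlier results of these data known. By role they are 6 cyclins and kinases of G1, 3 transcription factors, 8 genes of DNA replication and nucleotide supply, 4 cyclins and kinases of S phase and mitosis, 7 mitotic kinases, checkpoint and chromosomal passenger genes, 2 genes of the anaphase-promoting complex pathway, 8 spindle and cytokinesis genes, and the pair Mki67 and Top2a. The last 5 roles together hold 23 genes, called the S-to-mitosis genes here. This grouping was made after the values were seen.

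Poly(A) RNA was sequenced from liver of C57BL/6 mice in 4 groups of 3 libraries, and all carry floxed alleles. The p62F/F group has floxed alleles of Sqstm1, the gene of the autophagy adaptor p62, and no Cre recombinase. In p62Δhep the same alleles were deleted by Cre under the albumin promoter (Alb-Cre), which is active in hepatocytes. Tsc1Δhep has floxed Tsc1, whose product holds the growth kinase mTORC1 in check, deleted by the same Cre, and Tsc1/p62Δhep has both genes deleted by it. The labels place the deletions in hepatocytes, and cells without Cre activity keep the targeted genes. The sources used here do not give age, sex or the diet of each animal, and no sample label says whether a piece of liver held tumour. The deposited name of the counts with Tsc1 deleted holds the word NORMAL beside the Tsc1 knockout, without explaining it. Only p62F/F lacked Cre, so an effect of Cre cannot be told apart from that of p62 loss there. The labels do not say that the libraries of a group are separate animals, and p-values measure the spread between these libraries, which may be technical.

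Cells enter the cycle when D and E cyclins with CDK4, CDK6 and CDK2 inactivate the RB proteins and release E2F factors, which switch on the genes of DNA replication. Later, CDK1 with cyclins A and B drives mitosis, and many genes of that phase carry CHR and CCAAT promoter elements. Through the CHR element the DREAM complex holds such genes down in resting cells, and MYBL2 and FOXM1 switch them on. Most hepatocytes of adult liver rest outside the cycle, can re-enter it after injury, and can replicate DNA without dividing, which makes them polyploid.

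Library totals were 15792048 to 33377247 counts. Levels are CPM, counts scaled to a common library total, and are compared between libraries and never between genes, since they are not per length. Sqstm1 was at 292 to 378 CPM in p62F/F, 872 to 1284 in Tsc1Δhep, and 11.6 to 19.2 in the groups with p62 deleted. Tsc1 was at 25.2 to 43.0 CPM in p62F/F and p62Δhep and at 5.96 to 13.3 in the other groups, with the highest of these in Tsc1Δhep library 3. The 15 hepatocyte markers summed to 54468 to 131394 CPM in every library. Tsc1Δhep library 1 stood apart in markers of other cells: Clec4f, a Kupffer cell receptor, was at 0.0460 CPM there and at 20.2 to 190 CPM elsewhere. The test is the quasi-likelihood test of edgeR, its p-values are adjusted by Benjamini-Hochberg over all genes of a fit, a call is an adjusted p below 0.05, and a ± after a log2 difference is its standard error.

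The promoters of the members are shown first, as a description of the genes. Since many mitotic genes carry CHR and CCAAT elements, the shares below may follow from the choice of genes by function. A link between these letters and the levels was not tested. RefSeq promoters of GRCm38.p6, from 250 bases before to 50 after the transcription start, were at hand for 32 of the 40 members. Those without an entry were Ccnd1, Ccnd2, Ccne2, Foxm1, Ccna2, Aurkb, Tpx2 and Kif20a. Each window was searched on both strands for the CHR element (TTTGAA or TTCGAA), the CCAAT box (CCAAT) and E2F letters (TTCCCGC or TTGGCGC). Below, the 180 bases before the start are printed 5′ to 3′ on the gene's strand, with every match in capitals, for 4 S-to-mitosis genes (Cdc20, Ube2c, Top2a and Cdk1) and, for contrast, 2 genes of the replication helicase (Mcm6 and Mcm5). They lie at chr4:118437344-118437523 (minus strand), chr2:164769749-164769928 (plus), chr11:99024190-99024369 (minus), chr10:69352913-69353092 (minus), chr1:128359706-128359885 (minus) and chr8:75109329-75109508 (plus).
Cdc20: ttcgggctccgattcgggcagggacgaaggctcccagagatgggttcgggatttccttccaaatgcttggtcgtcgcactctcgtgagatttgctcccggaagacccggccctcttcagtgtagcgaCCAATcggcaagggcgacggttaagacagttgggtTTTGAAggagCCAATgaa
Ube2c: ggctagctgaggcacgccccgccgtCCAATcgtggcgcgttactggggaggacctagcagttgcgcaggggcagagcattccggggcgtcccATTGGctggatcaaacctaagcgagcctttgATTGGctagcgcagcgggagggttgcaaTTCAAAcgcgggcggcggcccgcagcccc
Top2a: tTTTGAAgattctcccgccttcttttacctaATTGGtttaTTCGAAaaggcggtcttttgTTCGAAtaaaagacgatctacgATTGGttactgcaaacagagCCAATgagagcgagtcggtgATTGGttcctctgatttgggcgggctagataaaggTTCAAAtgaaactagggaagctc
Cdk1: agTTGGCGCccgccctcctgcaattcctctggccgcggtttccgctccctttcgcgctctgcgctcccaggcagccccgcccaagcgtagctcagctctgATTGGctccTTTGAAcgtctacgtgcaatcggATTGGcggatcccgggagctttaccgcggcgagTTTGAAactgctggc
Mcm6: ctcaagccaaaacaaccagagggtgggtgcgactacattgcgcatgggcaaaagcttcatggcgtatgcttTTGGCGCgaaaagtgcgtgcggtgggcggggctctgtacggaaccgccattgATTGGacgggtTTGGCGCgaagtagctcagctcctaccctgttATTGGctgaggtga
Mcm5: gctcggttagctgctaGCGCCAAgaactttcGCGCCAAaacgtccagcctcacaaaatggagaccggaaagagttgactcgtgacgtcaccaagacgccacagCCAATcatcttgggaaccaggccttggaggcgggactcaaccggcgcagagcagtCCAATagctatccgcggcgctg
The CHR element stood in 15 of 19 S-to-mitosis promoters (78.9%), in 1 of 8 replication promoters (12.5%, Mcm2) and in 21.7% of the promoters of all 27025 genes in the table. The CCAAT box stood in 16 of 19 S-to-mitosis promoters (84.2%), in 6 of 8 replication promoters (75%) and in 41.1% of all. Both together were in 14 of 19 (73.7%), 1 of 8 (12.5%) and 8.61% of all. E2F letters were most frequent among the replication genes, with 3 of 19 S-to-mitosis promoters (15.8%), 4 of 8 replication promoters (50%) and 7.79% of all. In 14 members a CHR match lay within 50 bases of the start, as in Prc1, Kif11 and Cenpf. Matches of different motifs overlapped in 2 places, in 2 members. These are matches of letters in a window and not measured binding.

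**Figure D1:**
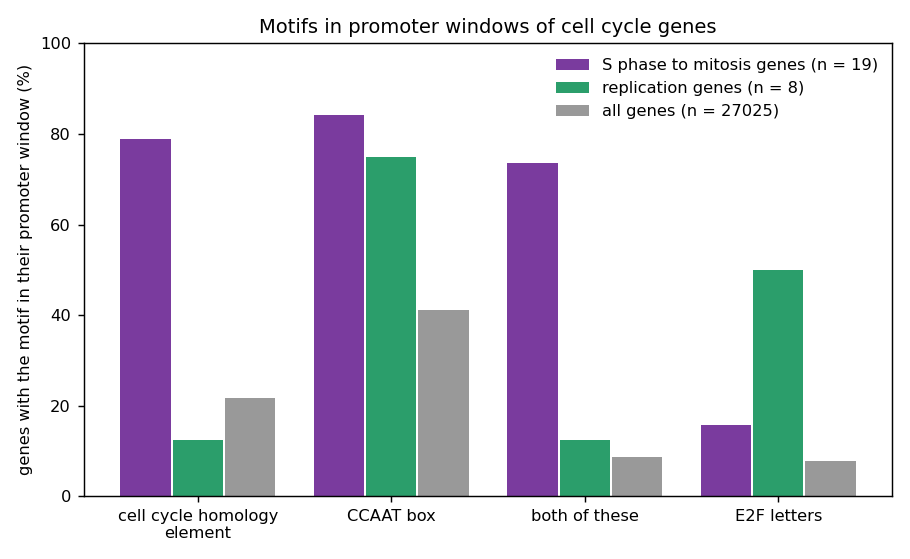
Share of promoters (percent, vertical axis) holding each motif, for the S-to-mitosis members, the replication members and all genes in the RefSeq table. The CHR element is in 78.9% of S-to-mitosis, 12.5% of replication and 21.7% of all promoters, and E2F letters are in 15.8%, 50% and 7.79%.

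Across the 4 groups the members summed to 135, 217 and 257 CPM in p62F/F and to 162, 135 and 171 in p62Δhep. The Tsc1Δhep libraries held 459, 642 and 429 CPM, and those of Tsc1/p62Δhep 133, 132 and 254. All 3 Tsc1Δhep libraries were above the other 9, and the single high Tsc1/p62Δhep library was library 3. In bulk tissue, fewer cycling cells and less RNA per cycling cell cannot be told apart, and this holds for every result here. On TMM-scaled library sizes the group means moved by less than the spread of the libraries.

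**Figure D2:**
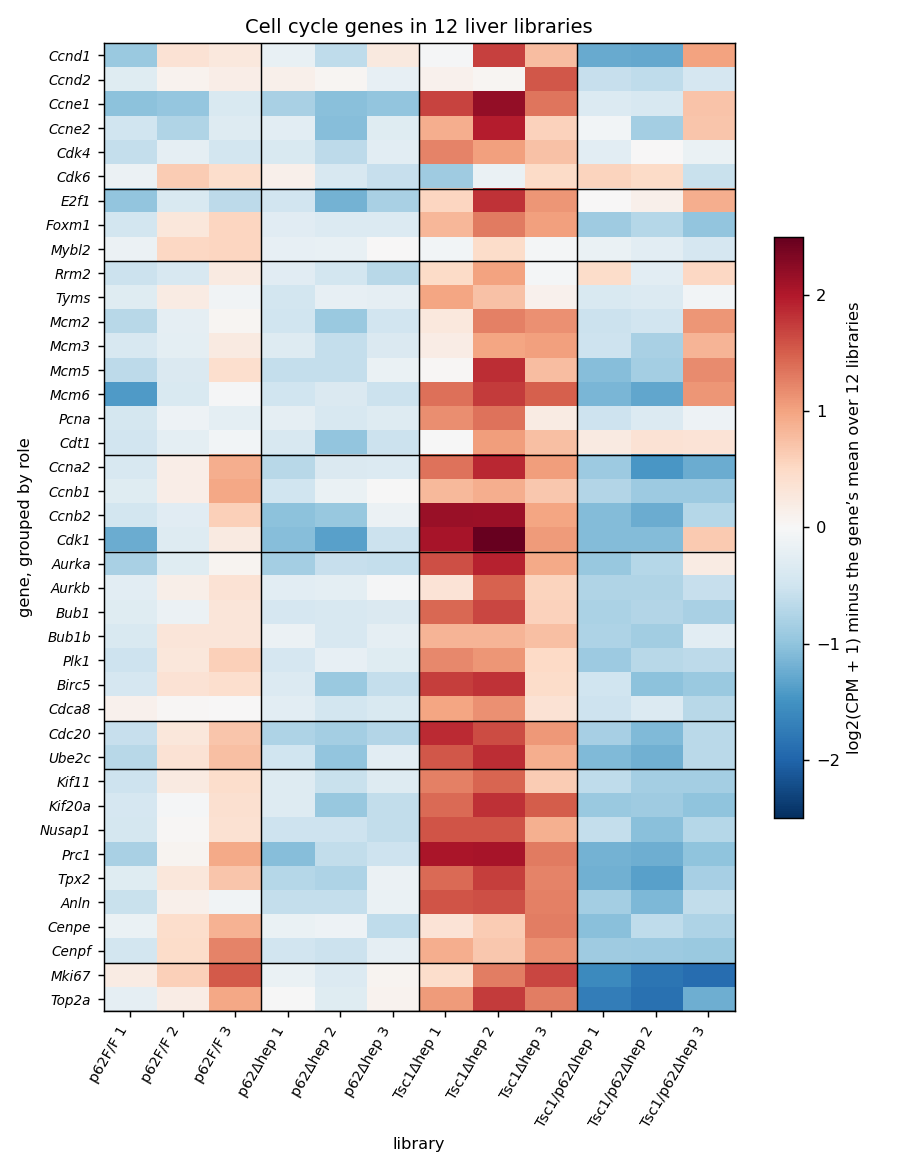
Level of each of the 40 members (rows, by role) in the 12 libraries (columns, by group), as log2(CPM + 1) minus the gene's mean over all libraries (colour scale). Most S-to-mitosis rows are lowest in Tsc1/p62Δhep and highest in Tsc1Δhep, while the Mcm rows are low in Tsc1/p62Δhep libraries 1 and 2 and not in library 3.

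With Tsc1 deleted, the further loss of p62 went with a fall of 25 of the 39 members tested and a rise of none, beside 14.9% of all genes lower and 9.25% higher in the same test. The fall lay in the S-to-mitosis genes, of which 22 of 23 fell with a median log2 difference of -3.26, against -0.05 over all genes. Since that grouping was made after the values were seen, its counts describe the set and are not a test of it. In sign alone, 37 of 39 members lay below 0, where 52.2% of all genes did. Of the 8 replication members none passed the test, and their median was -0.57. The G1 genes had 2 of 6 lower, and Foxm1 was lower of the 2 transcription factors tested, while Mybl2 was too low for the filter. Counts in Tsc1/p62Δhep were few, and 13 of the 23 S-to-mitosis genes had under 30 over its 3 libraries together. This limits the precision of their fold changes. Genes this low pass the filter largely through Tsc1Δhep, where they are high, so they could hardly be called other than lower. Between 17 and 23 of the 23 were called when any 1 library was left out, with the fewest (17) without Tsc1/p62Δhep library 1 or 2.

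The general markers of cycling cells are Mki67, the Ki-67 protein that coats mitotic chromosomes, and Top2a, the topoisomerase that untangles replicated DNA. Mki67 was at 6.45, 8.77 and 17.7 CPM in p62F/F libraries 1 to 3, 4.74, 4.10 and 5.78 in p62Δhep and 7.68, 14.6 and 19.5 in Tsc1Δhep, while Tsc1/p62Δhep held 1.14, 0.824 and 0.730. The Tsc1/p62Δhep libraries were the lowest of all 12, and Tsc1Δhep overlapped p62F/F. Mki67 fell 12.0-fold from Tsc1Δhep to Tsc1/p62Δhep (log2 -3.58 ± 0.41, edgeR adjusted p = 0.00177). Top2a was at 4.13, 5.83 and 10.9 CPM in p62F/F, 5.02, 3.88 and 5.42 in p62Δhep and 11.7, 19.4 and 13.7 in Tsc1Δhep, while Tsc1/p62Δhep held 0.823, 0.647 and 1.57. It fell 11.4-fold (log2 -3.52 ± 0.43, edgeR adjusted p = 0.00239), and again no Tsc1/p62Δhep library reached any other library.

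**Figure D3:**
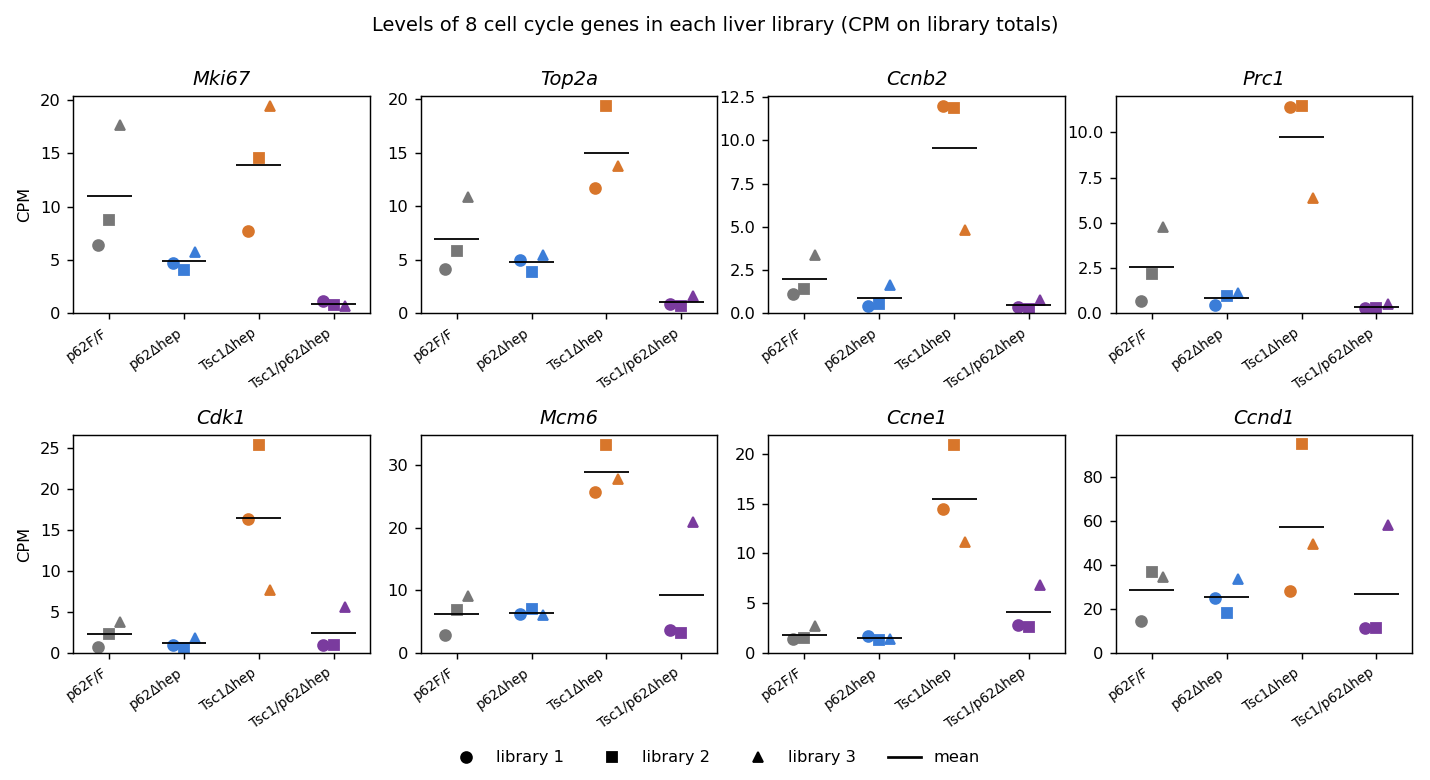
CPM on library totals (vertical axes, each starting at 0) of 8 members in every library, with a marker for each library and a line for the group mean. Mki67 and Top2a are lowest in all 3 Tsc1/p62Δhep libraries (0.730 to 1.14 and 0.647 to 1.57 CPM), while Mcm6, Ccnd1 and Cdk1 are low in libraries 1 and 2 and higher in library 3 (20.9, 58.1 and 5.56 CPM).

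Among the cyclins, Ccna2 (cyclin A2, active from S phase to early mitosis) was at 1.66, 2.99 and 5.65 CPM in p62F/F, 1.20, 1.77 and 1.78 in p62Δhep and 8.05, 12.1 and 6.35 in Tsc1Δhep, while Tsc1/p62Δhep held 0.887, 0.294 and 0.505. It fell 12.5-fold between the last 2 groups (log2 -3.64 ± 0.50, edgeR adjusted p = 0.00349). Its Tsc1/p62Δhep libraries were also below all 6 libraries with intact Tsc1. Ccnb1, a cyclin that carries CDK1 into mitosis, was at 0.706, 1.349 and 3.10 CPM in p62F/F, 0.491, 0.855 and 1.07 in p62Δhep and 2.67, 2.91 and 2.34 in Tsc1Δhep, while Tsc1/p62Δhep held 0.253, 0.118 and 0.112. It fell by the same order (log2 -3.67 ± 0.49, edgeR adjusted p = 0.00317), on 4, 2 and 2 counts in the Tsc1/p62Δhep libraries. Tsc1Δhep did not clear p62F/F for Ccnb1, because p62F/F library 3 was the highest of all. Ccnb2, its partner in this role, was at 12.0, 11.9 and 4.80 CPM in Tsc1Δhep, against 0.380, 0.235 and 0.786 in Tsc1/p62Δhep (log2 -4.01 ± 0.61, edgeR adjusted p = 0.00497). Its p62F/F libraries were at 1.11, 1.40 and 3.38 CPM and its p62Δhep libraries at 0.436, 0.513 and 1.62.

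Cdk1, the kinase those cyclins activate, was the 1 S-to-mitosis gene that missed the threshold. It was at 0.756, 2.31 and 3.82 CPM in p62F/F, 0.982, 0.627 and 1.86 in p62Δhep and 16.3, 25.3 and 7.72 in Tsc1Δhep, while Tsc1/p62Δhep held 0.950, 0.941 and 5.56. The last 2 groups did not overlap, but library 3 of Tsc1/p62Δhep lay well above libraries 1 and 2. The log2 difference was -2.38 ± 0.79 with an edgeR adjusted p of 0.0643, and 0.0183 without that library. Cdk1 also passed in DESeq2 (adjusted p = 0.00645) and in the fit of all 12 libraries with edgeR (adjusted p = 0.0281).

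All 7 mitotic kinase, checkpoint and passenger genes fell, with a median log2 difference of -3.14. Bub1, a kinase of the spindle checkpoint, was at 0.504, 0.674 and 1.27 CPM in p62F/F, 0.382, 0.399 and 0.435 in p62Δhep and 4.001, 4.88 and 1.77 in Tsc1Δhep, while Tsc1/p62Δhep held 0.0633, 0.118 and 0.0561. Its log2 difference was the largest of the members at -5.09 ± 0.67 (edgeR adjusted p = 0.00303), but it rests on 1, 2 and 1 counts in the Tsc1/p62Δhep libraries. Plk1, the kinase that drives entry into and exit from mitosis, was at 3.63, 3.33 and 1.83 CPM in Tsc1Δhep, against 0.0633, 0.235 and 0.281 in Tsc1/p62Δhep (log2 -3.55 ± 0.61, edgeR adjusted p = 0.00709). Its p62F/F libraries held 0.403, 1.44 and 2.05 CPM and its p62Δhep libraries 0.491, 0.741 and 0.633. All Tsc1/p62Δhep libraries lay below all others for both genes.

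The passenger complex corrects chromosome attachment and is made up in part of Aurora B (Aurkb), survivin (Birc5) and borealin (Cdca8). Aurkb was at 0.656, 1.20 and 1.55 CPM in p62F/F, 0.654, 0.684 and 0.950 in p62Δhep and 1.52, 4.55 and 1.94 in Tsc1Δhep, while Tsc1/p62Δhep held 0.190, 0.176 and 0.337 (log2 -3.14 ± 0.62, edgeR adjusted p = 0.0117). Birc5 was at 1.06, 2.55 and 2.71 CPM in p62F/F, 1.20, 0.456 and 0.831 in p62Δhep and 8.14, 8.75 and 2.80 in Tsc1Δhep, while Tsc1/p62Δhep held 0.950, 0.353 and 0.449 (log2 -3.18 ± 0.62, edgeR adjusted p = 0.011). Cdca8 was at 1.92, 1.73 and 1.72 CPM in p62F/F, 1.25, 0.969 and 1.07 in p62Δhep and 4.37, 4.91 and 2.46 in Tsc1Δhep, while Tsc1/p62Δhep held 0.887, 1.12 and 0.674 (log2 -1.81 ± 0.44, edgeR adjusted p = 0.0233). In the pair of groups with Tsc1 deleted no library of either group reached the other for any of the 3 genes. For Birc5 and Cdca8 the margin was between Tsc1Δhep library 3, at 2.80 and 2.46 CPM, and a Tsc1/p62Δhep library at 0.950 and 1.12 CPM.

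Aurka, the centrosome kinase Aurora A, was at 0.857, 1.64 and 2.44 CPM in p62F/F, 0.818, 1.20 and 1.15 in p62Δhep and 8.97, 11.3 and 5.32 in Tsc1Δhep, while Tsc1/p62Δhep held 0.697, 1.00 and 2.75 (log2 -2.18 ± 0.59, edgeR adjusted p = 0.0328). Bub1b, the checkpoint protein BubR1, was at 1.06, 2.31 and 2.33 CPM in p62F/F, 1.42, 1.03 and 1.31 in p62Δhep and 3.86, 3.83 and 3.54 in Tsc1Δhep, while Tsc1/p62Δhep held 0.570, 0.471 and 1.24 (log2 -1.94 ± 0.46, edgeR adjusted p = 0.0218). For both, Tsc1/p62Δhep library 3 was above libraries 1 and 2. It lay above all p62F/F libraries for Aurka and within their range for Bub1b. Aurka, Aurkb, Birc5, Bub1b, Cdca8 and Cenpe were the S-to-mitosis genes that lost their call in at least 1 alternative, each of them without Tsc1/p62Δhep library 1 or library 2.

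Cdc20, the activator that lets the anaphase-promoting complex start anaphase, was at 0.958, 2.55 and 3.71 CPM in p62F/F, 0.709, 0.627 and 0.752 in p62Δhep and 9.61, 7.999 and 5.20 in Tsc1Δhep, while Tsc1/p62Δhep held 0.633, 0.353 and 0.842. It fell 9.84-fold with p62 loss in the Tsc1-deleted liver (log2 -3.30 ± 0.47, edgeR adjusted p = 0.00404). Here p62Δhep and Tsc1/p62Δhep overlapped, and both were below p62F/F. Ube2c, the ubiquitin-conjugating enzyme of the same complex, was at 0.908, 2.99 and 4.21 CPM in p62F/F, 1.20, 0.570 and 1.58 in p62Δhep and 8.05, 10.1 and 4.80 in Tsc1Δhep, while Tsc1/p62Δhep held 0.443, 0.353 and 0.955. It fell 10.3-fold (log2 -3.36 ± 0.53, edgeR adjusted p = 0.00561). Both carry CHR and CCAAT letters before their start, in the sequences given above.

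All 8 spindle and cytokinesis genes fell, with log2 differences from -4.36 to -2.37. Prc1, which bundles the microtubules of the central spindle, was at 0.706, 2.17 and 4.76 CPM in p62F/F, 0.436, 0.969 and 1.11 in p62Δhep and 11.4, 11.5 and 6.35 in Tsc1Δhep, while Tsc1/p62Δhep held 0.317, 0.294 and 0.505. It fell 20.5-fold (log2 -4.36 ± 0.46, edgeR adjusted p = 0.00145), the largest of the role. Kif20a, a kinesin of the cleavage furrow region, was at 1.51, 2.31 and 3.43 CPM in p62F/F, 1.69, 0.741 and 1.19 in p62Δhep and 8.003, 10.8 and 8.63 in Tsc1Δhep, while Tsc1/p62Δhep held 0.760, 0.824 and 0.674 and had the smallest adjusted p of all members (log2 -3.26 ± 0.32, edgeR adjusted p = 0.00117). Its Tsc1/p62Δhep libraries were close together and below all 3 Tsc1Δhep and all 3 p62F/F libraries, and they overlapped p62Δhep.

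Anln, the actin-binding anillin of the contractile ring, was at 0.908, 2.07 and 1.66 CPM in p62F/F, 0.872, 0.855 and 1.504 in p62Δhep and 7.31, 7.55 and 5.77 in Tsc1Δhep, while Tsc1/p62Δhep held 0.570, 0.294 and 0.842 (log2 -3.24 ± 0.46, edgeR adjusted p = 0.00375). Tpx2, which activates Aurora A on the spindle, was at 1.56, 2.84 and 4.15 CPM in p62F/F, 0.927, 0.855 and 1.86 in p62Δhep and 7.497, 9.59 and 6.46 in Tsc1Δhep, while Tsc1/p62Δhep held 0.380, 0.235 and 0.786 (log2 -3.70 ± 0.50, edgeR adjusted p = 0.00325). For these 2 genes all Tsc1/p62Δhep libraries were below all other libraries. Nusap1, a microtubule bundler, was at 0.958, 1.73 and 2.49 CPM in p62F/F, 0.872, 0.855 and 0.752 in p62Δhep and 6.94, 6.92 and 3.94 in Tsc1Δhep, while Tsc1/p62Δhep held 0.760, 0.294 and 0.618 (log2 -3.08 ± 0.49, edgeR adjusted p = 0.00566). Kif11, the motor that pushes spindle poles apart, was at 1.46, 3.08 and 3.76 CPM in p62F/F, 1.80, 1.37 and 1.82 in p62Δhep and 7.40, 8.66 and 4.46 in Tsc1Δhep, while Tsc1/p62Δhep held 1.27, 0.941 and 0.955 and had the smallest fall of the role (log2 -2.37 ± 0.40, edgeR adjusted p = 0.00678). The kinetochore proteins Cenpe and Cenpf overlapped between Tsc1Δhep and p62F/F. Cenpf was at 0.857, 2.504 and 4.98 CPM in p62F/F, 0.818, 0.741 and 1.19 in p62Δhep and 3.77, 3.03 and 4.57 in Tsc1Δhep, while Tsc1/p62Δhep held 0.380, 0.353 and 0.337 (log2 -3.04 ± 0.38, edgeR adjusted p = 0.00251). Cenpe was at 1.21, 2.36 and 3.49 CPM in p62F/F, 1.20, 1.25 and 0.594 in p62Δhep and 2.12, 2.82 and 4.97 in Tsc1Δhep, while Tsc1/p62Δhep held 0.190, 0.588 and 0.449 (log2 -2.61 ± 0.53, edgeR adjusted p = 0.0128). Their low values in Tsc1/p62Δhep were below every other library.

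**Figure D4:**
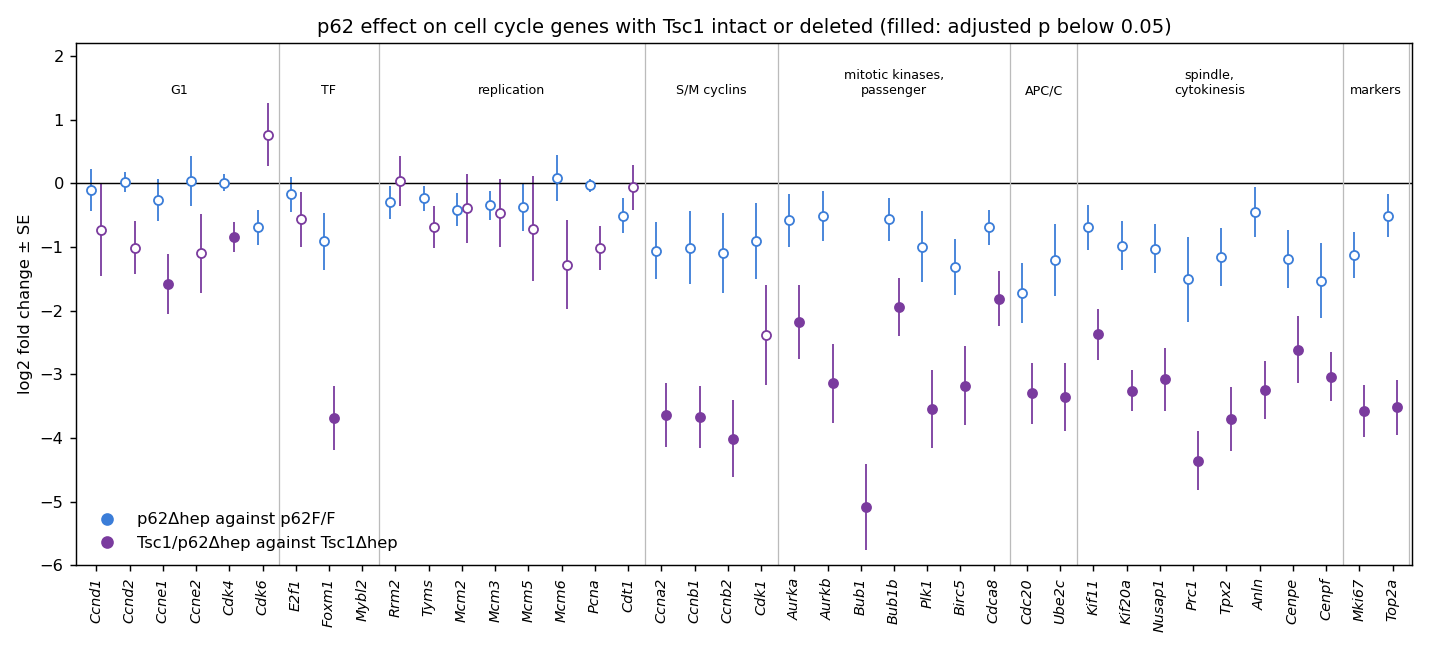
Log2 difference with its standard error (vertical axis) of each tested member for p62 loss with Tsc1 intact (blue) and with Tsc1 deleted (purple), with members ordered by role along the horizontal axis (TF, transcription factors; APC/C, anaphase-promoting complex; markers, Mki67 and Top2a). Filled points have an adjusted p below 0.05. With Tsc1 deleted the S-to-mitosis members lie between -5.09 and -1.81 and the replication members between -1.28 and 0.04.

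Foxm1, a transcription factor of mitotic genes, fell too. It was at 0.605, 1.69 and 2.21 CPM in p62F/F, 0.818, 0.741 and 0.752 in p62Δhep and 2.94, 4.43 and 3.49 in Tsc1Δhep, while Tsc1/p62Δhep held 0.190, 0.353 and 0.112, and fell 12.8-fold (log2 -3.68 ± 0.50, edgeR adjusted p = 0.00335). Mybl2, which works beside it, had counts of 0 to 28 in a library and was at 0.202, 0.915 and 0.941 CPM in p62F/F, 0.164, 0.171 and 0.356 in p62Δhep and 0.276, 0.839 and 0.286 in Tsc1Δhep, while Tsc1/p62Δhep held 0.190, 0.118 and 0. The Tsc1/p62Δhep libraries held 3, 2 and 0 counts of it, below all Tsc1Δhep and p62F/F libraries. E2f1, an activator of replication genes, was at 2.37, 4.09 and 3.21 CPM in p62F/F, 3.76, 1.94 and 2.77 in p62Δhep and 8.65, 22.4 and 13.3 in Tsc1Δhep, while Tsc1/p62Δhep held 5.70, 6.24 and 11.5. Here the Tsc1/p62Δhep libraries were above all libraries with intact Tsc1 and overlapped Tsc1Δhep (log2 -0.57 ± 0.43, edgeR adjusted p = 0.357). The levels of Foxm1 and E2f1 in Tsc1/p62Δhep lay on opposite sides of those in p62F/F.

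Of the G1 genes, Ccne1 and Cdk4 fell and the other 4 did not pass. Ccne1, cyclin E1 of the step into S phase, was at 1.36, 1.44 and 2.66 CPM in p62F/F, 1.74, 1.31 and 1.42 in p62Δhep and 14.4, 20.9 and 11.1 in Tsc1Δhep, while Tsc1/p62Δhep held 2.79, 2.65 and 6.79 (log2 -1.58 ± 0.47, edgeR adjusted p = 0.0446). Cdk4, the kinase of D cyclins, was at 21.6, 28.4 and 23.8 CPM in p62F/F, 25.1, 20.6 and 27.3 in p62Δhep and 79.8, 68.4 and 55.6 in Tsc1Δhep, while Tsc1/p62Δhep held 27.4, 33.5 and 29.3 (log2 -0.85 ± 0.24, edgeR adjusted p = 0.0381). Both were still above p62Δhep in all 3 Tsc1/p62Δhep libraries. The adjusted p of Ccne1 rose to 0.0617 to 0.159 when Tsc1Δhep library 1 or 2 or Tsc1/p62Δhep library 1 or 2 was left out, and that of Cdk4 to 0.0664 to 0.163 when any library but Tsc1Δhep library 3 was.

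Ccnd1, cyclin D1, was at 14.5, 36.8 and 34.4 CPM in p62F/F, 24.9, 18.0 and 33.8 in p62Δhep and 28.0, 95.0 and 49.5 in Tsc1Δhep, while Tsc1/p62Δhep held 11.3, 11.2 and 58.1 (log2 -0.73 ± 0.73, edgeR adjusted p = 0.48). Both groups with Tsc1 deleted held a library far above its partners, library 2 of Tsc1Δhep and library 3 of Tsc1/p62Δhep. Ccne2 was at 6.76, 15.1 and 5.15 CPM in Tsc1Δhep, against 2.98, 1.29 and 5.73 in Tsc1/p62Δhep, with the same libraries high. Ccnd2, cyclin D2, was at 11.7, 11.3 and 33.8 CPM in Tsc1Δhep, against 6.97, 6.65 and 7.80 in Tsc1/p62Δhep, with no overlap and an edgeR adjusted p of 0.112. Cdk6 was at 2.16, 4.25 and 7.20 and 7.66, 7.24 and 2.98 CPM, and was the tested member with the largest positive difference (log2 0.77 ± 0.49, edgeR adjusted p = 0.276).

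The replication genes are the helicase subunits Mcm2, Mcm3, Mcm5 and Mcm6, the loading factor Cdt1, the sliding clamp Pcna, and Rrm2 and Tyms, which make deoxynucleotides. Mcm6 was at 2.82, 6.84 and 9.02 CPM in p62F/F, 6.22, 6.96 and 6.01 in p62Δhep and 25.6, 33.3 and 27.7 in Tsc1Δhep, while Tsc1/p62Δhep held 3.61, 3.18 and 20.9. Libraries 1 and 2 of Tsc1/p62Δhep were near the low end of p62F/F and library 3 was near Tsc1Δhep (log2 -1.28 ± 0.70, edgeR adjusted p = 0.208). Mcm5 was at 2.37, 3.13 and 6.09 CPM in p62F/F, 2.51, 2.51 and 3.68 in p62Δhep and 4.42, 18.0 and 8.06 in Tsc1Δhep, while Tsc1/p62Δhep held 1.52, 1.94 and 10.9 (log2 -0.72 ± 0.83, edgeR adjusted p = 0.542). Mcm2 was at 3.98, 5.88 and 7.31 CPM in p62F/F, 4.69, 3.19 and 4.75 in p62Δhep and 8.60, 18.1 and 16.8 in Tsc1Δhep, while Tsc1/p62Δhep held 4.56, 4.76 and 16.2 (log2 -0.39 ± 0.55, edgeR adjusted p = 0.616). Mcm3 was at 4.44, 5.11 and 7.36 CPM in p62F/F, 4.74, 3.76 and 4.59 in p62Δhep and 7.13, 13.3 and 13.5 in Tsc1Δhep, while Tsc1/p62Δhep held 3.99, 3.12 and 11.9 (log2 -0.46 ± 0.54, edgeR adjusted p = 0.543). All 4 helicase genes showed the same high library 3 in Tsc1/p62Δhep. Without it the median of the 8 replication genes was -1.21 in place of -0.57, and Mcm6 was called lower (edgeR adjusted p = 0.00632).

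Pcna, Rrm2, Tyms and Cdt1 did not share that library. Pcna was at 19.4, 24.4 and 22.4 CPM in p62F/F, 22.6, 19.95 and 21.2 in p62Δhep and 61.1, 69.7 and 30.8 in Tsc1Δhep, while Tsc1/p62Δhep held 18.4, 20.9 and 24.5 (log2 -1.02 ± 0.35, edgeR adjusted p = 0.0722). Rrm2 was at 5.34, 5.92 and 9.74 CPM in p62F/F, 6.54, 5.70 and 4.67 in p62Δhep and 11.8, 17.4 and 7.83 in Tsc1Δhep, while Tsc1/p62Δhep held 11.6, 6.59 and 12.1 (log2 0.04 ± 0.39, edgeR adjusted p = 0.951). The Rrm2 levels of the groups with Tsc1 deleted overlapped, and Tsc1/p62Δhep lay above p62Δhep in every library. Tyms was at 17.4, 14.4 and 9.03 CPM in Tsc1Δhep, against 6.14, 6.35 and 7.80 in Tsc1/p62Δhep (edgeR adjusted p = 0.167). Cdt1 was at 2.37, 2.99 and 3.49 CPM in p62F/F, 2.56, 1.37 and 2.22 in p62Δhep and 3.68, 8.69 and 6.92 in Tsc1Δhep, while Tsc1/p62Δhep held 4.50, 5.0 and 4.94 (log2 -0.06 ± 0.35, edgeR adjusted p = 0.906), so that Tsc1/p62Δhep was above all libraries with intact Tsc1. Left without Tsc1Δhep library 3, the fit called Pcna (edgeR adjusted p = 0.00368) and Tyms (edgeR adjusted p = 0.0217) lower.

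With Tsc1 intact, p62 loss gave no called member: 0 of 38 tested were lower and 0 higher, beside 0.0159% of all genes lower and 0% higher. DESeq2 and limma also called none. At an unadjusted p below 0.05, 11 members were lower and none higher, beside 4.96% of all genes lower. The S-to-mitosis genes lay below 0 in 22 of 22 tested, where 49.3% of all genes did, with a median log2 difference of -1.02, and the 6 G1 genes had a median of -0.05. Without p62F/F library 3 the S-to-mitosis median was -0.50 and 2 members passed the unadjusted p. That library was the highest of its group for 32 of 40 members and library 1 the lowest for 38 of 40.

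Cdc20 had the smallest p of the members in this comparison. Its p62F/F libraries at 0.958, 2.55 and 3.71 CPM were all above the p62Δhep libraries at 0.709, 0.627 and 0.752 (log2 -1.73 ± 0.47, edgeR adjusted p = 0.411). Mki67 followed with log2 -1.13 ± 0.36 (edgeR adjusted p = 0.504), and Birc5 with -1.31 ± 0.44 (edgeR adjusted p = 0.511). The groups did not overlap for Mki67, Cdc20, Cdca8, Nusap1 and Bub1, 5 of 40 members, beside 5.16% of all genes lower with no overlap. On TMM-scaled CPM they did not overlap for 8 members, beside 6.38%. These shares are over genes that passed the filter, which Bub1 did not. The replication genes had log2 differences of -0.51 to 0.09.

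The p62 effect itself was then compared between the Tsc1 backgrounds, as an interaction in a fit of all 12 libraries. In that test 13 of 40 members had a more negative p62 effect with Tsc1 deleted and none a more positive effect, beside 9.32% and 6.76% of all genes. Of the 13, 11 were S-to-mitosis genes, and the others were Foxm1 and Cdk4. All 23 S-to-mitosis genes lay below 0, where 53.3% of all genes did, with a median of -2.28, while the replication genes had a median of -0.24 and none called. The largest differences among the called members were Bub1 (log2 -4.13 ± 0.82, edgeR adjusted p = 0.00804), Top2a (-3.02 ± 0.56, edgeR adjusted p = 0.00585) and Prc1 (-2.86 ± 0.88, edgeR adjusted p = 0.0464). Bub1 did not pass the filter with Tsc1 intact and had few counts in Tsc1/p62Δhep. Genes this low pass the filter of the 12-library fit largely through Tsc1Δhep, where they are high. They could hardly be called in the other direction. Top2a, Bub1, Mki67, Kif20a and Anln kept their call in all 17 alternatives, and the other 8 lost it in at least 1. Cdk4 (log2 -0.86 ± 0.27, edgeR adjusted p = 0.0476) lost it in 15 of them. Since only p62F/F lacked Cre, an effect of Cre does not cancel in this contrast.

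Several S-to-mitosis genes fell just short in the interaction. Kif11 had a log2 difference of -1.69 ± 0.53 (edgeR adjusted p = 0.0501), Ccnb2 of -2.92 ± 0.94 (edgeR adjusted p = 0.0536) and Plk1 of -2.56 ± 0.87 (edgeR adjusted p = 0.0642). Cdc20 was lower with p62 loss in both backgrounds by level, and its difference between them was -1.58 ± 0.68 (edgeR adjusted p = 0.129). Cdk6 had the opposite sign, with 1.44 ± 0.60 (edgeR adjusted p = 0.117).

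Levels of Tsc1Δhep were set beside those of p62F/F without a test, because these groups are in separate tables and table and Tsc1 genotype cannot be told apart. Tsc1Δhep lay above p62F/F with no overlap for 26 of 40 members, beside 32.5% of all genes, with a median ratio of mean CPM of 2.501. On TMM-scaled CPM the count was 19, beside 22.8%. The largest ratio was that of Ccne1 (8.51), and Cdk1 (7.17) and Aurka followed among the S-to-mitosis genes. Tsc1Δhep library 2 was the highest of its group for 27 of 40 members and library 3 the lowest for 23. No member was lower with no overlap, and Cdk6 (ratio 0.7002) and Mybl2 (0.681) were the members with a lower mean.

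Tsc1/p62Δhep lay below p62F/F with no overlap for 22 of 40 members and above for 2, E2f1 and Cdt1, beside 30.3% of all genes lower and 17.1% higher. Among the S-to-mitosis genes 19 of 23 were lower, and among the replication genes 0 of 8. On TMM-scaled CPM 22 of 40 members and 19 of 23 S-to-mitosis genes were lower, beside 25.9% of all genes, and 4 members were higher, beside 24.5%, with Ccne1 and Cdk4 added to E2f1 and Cdt1. Beside p62Δhep, 14 members were lower, near the 30.8% of all genes, and 5 higher, beside 18.1%, the latter being Ccne1, Cdk4, E2f1, Rrm2 and Cdt1. On TMM-scaled CPM 11 were lower, beside 26.9%, and the same 5 higher, beside 24.1%. Both comparisons cross the tables and have no test. Within the second table, Tsc1/p62Δhep lay below Tsc1Δhep with no overlap for 31 of 40 members, beside 39.8% of all genes, and for 23 of 23 S-to-mitosis genes and 3 of 8 replication genes. On TMM-scaled CPM these counts were 27 of 40, beside 23.3%, with 22 of 23 and 0 of 8. The 39.8% and 23.3% are over genes that passed the filter, which Mybl2 did not.

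The S-to-mitosis and replication genes parted most in Tsc1/p62Δhep. Summed CPM of the 23 S-to-mitosis genes was 32.3, 58.8 and 95.2 in p62F/F, 29.6, 26.1 and 36.2 in p62Δhep, 165, 207 and 129 in Tsc1Δhep, while Tsc1/p62Δhep held 13.6, 11.1 and 22.0. Summed CPM of the 8 replication genes was 47.2, 64.0 and 73.1 in p62F/F, 55.7, 50.5 and 54.0 in p62Δhep, 139.8, 193 and 121 in Tsc1Δhep, while Tsc1/p62Δhep held 54.3, 51.9 and 109. The replication sum of Tsc1/p62Δhep lay in or above the range of the Tsc1-intact groups, while its S-to-mitosis sum lay below them. Within a library the ratio of the first sum to the second does not depend on its depth or scaling. It was 0.685, 0.919 and 1.30 in p62F/F and 0.532, 0.516 and 0.671 in p62Δhep. In Tsc1Δhep it was 1.18, 1.07 and 1.07, and in Tsc1/p62Δhep 0.249, 0.213 and 0.201 (mean 0.221 ± 0.0250, SD, n = 3). All 3 Tsc1/p62Δhep libraries were below all 9 others, also library 3 with its high replication sum. The ratio was formed after the values were seen and has no test.

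**Figure D5:**
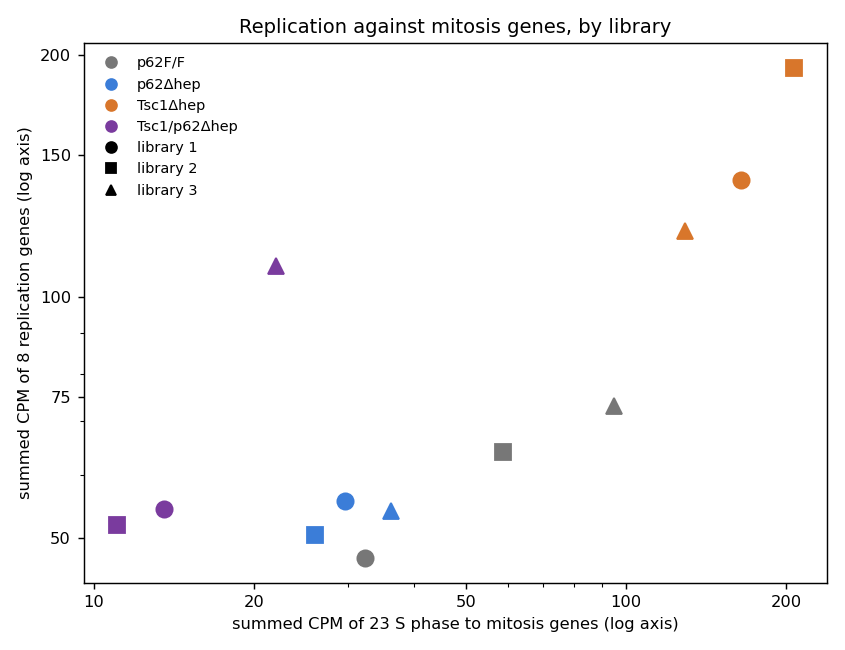
Summed CPM of the 23 S-to-mitosis members (horizontal axis, log scale) against summed CPM of the 8 replication members (vertical axis, log scale) in each of the 12 libraries, coloured by group. Tsc1Δhep lies at the upper right, and Tsc1/p62Δhep lies farthest left (11.1 to 22.0 CPM) at replication sums of 51.9 to 109 CPM.

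Library 3 of Tsc1/p62Δhep was over 1.5 times both partners for 17 of 40 members, beside 7.34% of all genes tested. Among these were 4 of 8 replication genes (the Mcm genes), 3 of 6 G1 genes (Ccnd1, Ccne1 and Ccne2), E2f1, and 9 of 23 S-to-mitosis genes. Mki67, Cenpf, Kif11, Kif20a and Birc5 were not raised in it. The rule was chosen after the values were seen. Leaving out this library left 25 members lower in the comparison with Tsc1Δhep, the same count as with it but not the same genes. Mcm6 and Cdk1 were gained, and Cdk4 was among those lost.

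A wider set of 103 cell cycle genes outside the members was read in the same comparisons. With Tsc1 deleted, p62 loss lowered 45 of the 97 tested and raised 2, beside 14.9% and 9.25% of all genes. All 11 further kinesin and cytokinesis genes tested fell (median log2 -3.14), led by Racgap1, a regulator of the cleavage furrow, with a log2 difference of -4.67 ± 0.41 (edgeR adjusted p = 0.000872), and the citron kinase Cit (-4.21 ± 0.44, edgeR adjusted p = 0.00142). The 12 genes of this list summed to 3.67 to 5.61 CPM in Tsc1/p62Δhep and to 39.6 to 64.6 in Tsc1Δhep. Genes this low pass the filter largely through Tsc1Δhep, so they could hardly be called other than lower. This holds for the low genes of the next lists too. Of 13 other mitotic markers 11 fell, with Hmmr at -4.73 ± 0.50 (edgeR adjusted p = 0.00146) and Cdca3 at -3.02 ± 0.36 (edgeR adjusted p = 0.00217). Of 15 kinetochore and checkpoint genes 10 fell, among them the NDC80 complex subunits Nuf2 (-4.73 ± 0.70, edgeR adjusted p = 0.00433) and Ndc80 (-3.89 ± 0.62, edgeR adjusted p = 0.00566). Condensin and separase genes had 5 of 8 lower, with securin, Pttg1, at -2.51 ± 0.25 (edgeR adjusted p = 0.00119) and separase, Espl1, at -3.07 ± 0.55 (edgeR adjusted p = 0.00805).

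In the same comparison 14.9% of all genes were lower and 9.25% higher. Of 24 further licensing and replication genes 3 fell and 2 rose, near those shares, with a median of -0.60. Gins2, a subunit of the replicative helicase, fell by a log2 of 3.65 ± 0.65 (edgeR adjusted p = 0.00808). Mcm10, which takes part in starting the fork, went the other way: it was at 6.48, 16.0 and 16.3 CPM in Tsc1Δhep but 58.3, 65.1 and 52.1 in Tsc1/p62Δhep (log2 2.54 ± 0.34, edgeR adjusted p = 0.00323). With Tsc1 intact it ranged widely, from 16.6 to 78.0 CPM, and the low end was near Tsc1Δhep libraries 2 and 3. None of 8 E2F and partner genes and none of 4 other G1 cyclin and kinase genes was called.

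Of the CDK inhibitors 2 of 6 fell, beside 14.9% of all genes: Cdkn2b (-3.43 ± 0.66, edgeR adjusted p = 0.0103) and Cdkn2c (-1.26 ± 0.34, edgeR adjusted p = 0.0341). Of the RB family, Rbl1, the pocket protein p107, fell by a log2 of 2.26 ± 0.61 (edgeR adjusted p = 0.0326), and Rbl2 was at 0.84 ± 0.27 (edgeR adjusted p = 0.0582). Of the phosphatases and kinases that set CDK1 activity, 2 of 5 genes fell, Cdc25c (-4.14 ± 0.77, edgeR adjusted p = 0.00947) and Cdc25b (-2.04 ± 0.57, edgeR adjusted p = 0.0371). With Tsc1 intact none of 84 tested genes of this wider set was called. In the interaction 16 of 102 were lower and 3 higher, beside 9.32% and 6.76% of all genes. Tfdp2 and Mcm10 were among the 3.

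Markers of several liver cell types differed between Tsc1Δhep and Tsc1/p62Δhep, where 14.9% of all genes were lower and 9.25% higher. Of 10 macrophage and Kupffer cell markers 6 fell, and their summed CPM was 286, 464 and 361 in Tsc1Δhep but 113, 97.6 and 98.1 in Tsc1/p62Δhep, against 393 to 494 in p62F/F and 505 to 716 in p62Δhep. The Kupffer cell genes Clec4f, Cd5l and Vsig4 were not among the 6, and Vsig4 was at 0 in Tsc1Δhep library 1. Of 8 tested cholangiocyte and progenitor markers 4 fell, with sums of 5749, 2576 and 1150.0 CPM in Tsc1Δhep and 122 to 177 in Tsc1/p62Δhep, most of it from Spp1. Stellate markers had 3 of 10 lower with a median log2 difference of 0.82. Endothelial markers had 1 of 9 lower, near the share of all genes, and neutrophil markers 2 of 3. Of the hepatocyte markers 7 of 15 rose, and 1 of 3 tested erythroid markers, Alas2 (log2 2.09 ± 0.29, edgeR adjusted p = 0.00354). T and NK cell markers summed to 1.85 to 10.8 CPM and B and plasma cell markers to 4.99 to 18.6 CPM in every library, with none called. With Tsc1 intact no marker of any list was called. Which cells the members' RNA came from was not tested. In Tsc1Δhep library 1, Clec4f and Vsig4 were at or near 0, while all 10 macrophage and Kupffer cell markers summed to 286 CPM. The S-to-mitosis sum of that library was 165 CPM, between those of its partners.

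The exons of 13 members overlap those of another gene in the GENCODE annotation of GRCm38, and the sources used here do not say whether counting used strand, so their counts may hold reads of a neighbour. They are Ccna2, Ccnd1, Ccnd2, Ccne2, Cdc20, Cdk4, Cdk6, Foxm1, Kif20a, Nusap1, Plk1, Prc1 and Ube2c, and for Foxm1 the overlap is on the same strand. Of the S-to-mitosis genes that kept their call in every alternative, Mki67, Top2a, Ccnb1, Ccnb2, Bub1, Tpx2, Anln, Kif11 and Cenpf have no such overlap.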

How the data were processed

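Gene counts of 12 mouse liver libraries were deposited by the authors as raw counts in 2 tables, 1 for the libraries with intact Tsc1 and 1 for those with Tsc1 deleted. Per the labels' protocols, liver was flash frozen, RNA was extracted with Trizol, and poly(A) RNA went through a strand-directed kit and was sequenced single-end or paired-end, with no link to a library. A human build, hg19, is named in the submitters' processing notes, although the gene symbols are those of mouse. Aligner, counter, annotation and strand setting were not given in the sources used here.

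Tests used edgeR 4.0.16 (R 4.3.3) on the deposited counts: filterByExpr (minimum count 10, minimum total 15), TMM factors, quasi-likelihood test, Benjamini-Hochberg adjustment over all genes tested, call at an adjusted p below 0.05. Each p62 comparison was fitted within its table, 3 libraries against 3, and the interaction over all 12. Levels are CPM on library totals, and 1 count was worth 0.0300 to 0.0633 CPM. Alternatives were DESeq2 1.42.0, limma 3.58.1 on log2(CPM + 1), RLE factors, no filter, a replicate block, all 12 libraries in 1 fit, and leaving out each library in turn. Code was tested on simulated data. The members and lists were chosen with earlier results of these data known, and the S-to-mitosis grouping after the values were seen. Named genes are all members, the 2 genes of smallest p in each further list and the targeted genes, with others named where a count of 5 or fewer is given. One gene of the further lists is not reported here. Replicate libraries differed by more than sampling noise.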

Additional observations from a re-analysis of the deposited data

Results flagged for a closer look

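For 13 members the effect of p62 loss differed between the Tsc1 backgrounds by the interaction test of edgeR at an adjusted p below 0.05, each more negative with Tsc1 deleted. The log2 differences of the chromosome genes were -3.02 for Top2a and -2.46 for Mki67. Those of the spindle and cytokinesis genes were -2.86 for Prc1, -2.79 for Anln, -2.55 for Tpx2, -2.28 for Kif20a and -2.07 for Nusap1. The cyclins Ccnb1 and Ccna2 had -2.67 and -2.60, and the kinases Bub1 and Aurkb had -4.13 and -2.63. The value of Bub1 rests on few counts in Tsc1/p62Δhep, and Bub1 did not pass the filter with Tsc1 intact. Outside the S-to-mitosis genes, Foxm1 had -2.78 and Cdk4 had -0.86.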

How the results depend on the processing

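With Tsc1 deleted, the 25 members lower were 18 to 28 when 1 library was left out, and 17 of the 25 kept their call in all 13 alternatives. In the interaction the 13 members lower were 6 to 20, and the member higher 0 to 1. No called member changed sign. The labels do not say that replicate numbers pair the libraries. Correlations of same-numbered deviations were -0.53 to 0.04. Deviations from a mean of 3 libraries are tied to each other, so these values cannot settle a pairing. A block on the number is therefore only a hint. With the replicate block, the counts of genes were 1 lower with Tsc1 intact, 1198 lower and 649 higher with Tsc1 deleted, and 543 lower and 368 higher in the interaction, where 8 members were lower. DESeq2 gave 136 genes lower and 33 higher with Tsc1 intact and 1775 higher with Tsc1 deleted. In limma 4 genes were lower with Tsc1 intact. The fit of all 12 libraries gave 1 gene lower with Tsc1 intact, and 2952 lower and 2249 higher with Tsc1 deleted. These compare with 2 and 0, 1886 and 1167, and 1233 and 894 genes lower and higher in the 3 comparisons as reported. Without 1 library the ranges were 1 to 48 lower and 0 to 1 higher, 760 to 3139 lower and 351 to 2686 higher, and 676 to 2551 lower and 465 to 2401 higher. Members that changed sign in an alternative were all uncalled. Without 1 library, log2 differences with Tsc1 intact were Ccnd1 -0.39 to 0.067, Ccnd2 -0.064 to 0.12, Ccne1 -0.44 to 0.095, Ccne2 -0.18 to 0.32, Cdk4 -0.10 to 0.085, Mcm5 -0.60 to 0.11, Mcm6 -0.23 to 0.46 and Rrm2 -0.44 to 0.0069. Without 1 library, log2 differences with Tsc1 deleted were Cdt1 -0.31 to 0.24, Mcm5 -2.21 to 0.026 and Rrm2 -0.22 to 0.39. Without 1 library, log2 differences in the interaction were E2f1 -0.81 to 0.065, Mcm2 -0.89 to 0.32, Mcm3 -0.99 to 0.21, Mcm5 -1.87 to 0.40 and Mybl2 -1.17 to 0.34. In limma the log2 difference was, for Mcm2, -0.21 in the interaction, Mybl2 0.083 in the interaction, Cdt1 0.0021 with Tsc1 deleted and Ccne2 -0.011 with Tsc1 intact. With the replicate block it was, for Mcm2, -0.21 in the interaction, Cdt1 0.0091 with Tsc1 deleted and Ccne2 -0.029 with Tsc1 intact. Without both Tsc1Δhep library 3 and Tsc1/p62Δhep library 1, it was, for Cdt1, 0.010 with Tsc1 deleted and Rrm2 -0.31 with Tsc1 deleted. The causes were not tested.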
